A study of Mus musculus with 7 samples.

Results

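The transcripts of the serine and arginine rich splicing factors (Srsf), the heterogeneous nuclear ribonucleoproteins (Hnrnp), the numbered RNA binding motif genes (Rbm) and the DEAD-box RNA helicases (Ddx) were compared between livers of newborn mice with and without glycerol kinase. Members were all probe sets whose platform annotation gave 1 gene symbol and whose symbol began with Rbm or Ddx and a digit, with Srsf and a digit, or with Hnrnp; no gene on the Y chromosome met this rule. They were 269 of 45037 probe sets other than controls and stood for 100 of 18193 genes with a single-symbol probe set: 36 Rbm, 35 Ddx, 19 Hnrnp and 10 Srsf genes. After dim probe sets were left out, 216 member probe sets of 88 genes entered the test. Rbm3, Rbm4, Rbm10 and Hnrnpa3 were read only by probe sets with several symbols and were not members, and Srsf7 had no probe set with a single symbol.

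Liver RNA came from 3 wild type and 4 glycerol kinase knockout male C57BL/6J pups on day of life 1, and each liver had its own array (Affymetrix Mouse Genome 430 2.0). The wild type pups were littermates of knockout pups, and both groups were otherwise untreated as far as the labels say. The knockout allele and the litters are not described in the sources used here. Glycerol kinase phosphorylates glycerol and is abundant in liver, and the knockout pups have no outward sign of the deficiency at this age, so the comparison asks which transcripts differ before disease is visible.

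Pre-mRNA is spliced by the spliceosome, a large complex of small nuclear RNAs and proteins. SR proteins bind exons and generally favour their inclusion, while hnRNP proteins coat the nascent transcript and often oppose it, so the balance between them sets many alternative exons. Many genes of both families carry a highly conserved exon or intron whose altered splicing exposes their own transcript to nonsense-mediated decay. Numbered Rbm genes share an RNA recognition motif and little else, and range from spliceosome subunits to regulators of tissue-specific exons. DEAD-box helicases use ATP to remodel RNA and its protein partners in ribosome assembly, splicing, export, translation and decay.

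Sequences before the start are shown for Srsf and Hnrnp genes that passed the test. Those of Rbm25, Rbm38 and Ddx5, which also passed, are not printed. The RefSeq table (GRCm38.p6) held promoters for 87 of the 100 genes, 110 promoters in all. The 150 bases upstream of the start are printed 5' to 3' on the gene's strand for 5 genes that passed and have a single entry: Srsf3 (chr17:29032510-29032659, plus strand), Srsf6 (chr2:162931358-162931507, plus), Srsf10 (chr4:135855921-135856070, plus), Hnrnpdl (chr5:100039223-100039372, minus) and Hnrnph2 (chrX:134601029-134601178, plus). Capitals mark matches on either strand to 1 of 5 motifs: the CCAAT box (CCAAT), the GC box (GGGCGG), the first bases of a cAMP response element (TGACGT), an ETS site (CCGGAAG) and the TATA box (TATAAA). None of the 5 contains another.
Srsf3: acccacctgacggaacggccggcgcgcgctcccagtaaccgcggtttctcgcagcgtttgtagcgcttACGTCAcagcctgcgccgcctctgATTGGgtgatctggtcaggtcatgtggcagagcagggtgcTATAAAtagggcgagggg
Srsf6: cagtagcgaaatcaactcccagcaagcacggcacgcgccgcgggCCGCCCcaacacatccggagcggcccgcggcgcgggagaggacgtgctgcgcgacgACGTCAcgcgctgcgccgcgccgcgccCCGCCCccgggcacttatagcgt
Srsf10: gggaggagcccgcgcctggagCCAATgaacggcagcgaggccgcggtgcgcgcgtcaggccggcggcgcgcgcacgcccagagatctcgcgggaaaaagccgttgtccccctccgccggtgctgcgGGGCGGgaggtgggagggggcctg
Hnrnpdl: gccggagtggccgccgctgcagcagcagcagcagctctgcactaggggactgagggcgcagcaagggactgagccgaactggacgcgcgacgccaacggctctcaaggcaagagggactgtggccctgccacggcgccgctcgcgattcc
Hnrnph2: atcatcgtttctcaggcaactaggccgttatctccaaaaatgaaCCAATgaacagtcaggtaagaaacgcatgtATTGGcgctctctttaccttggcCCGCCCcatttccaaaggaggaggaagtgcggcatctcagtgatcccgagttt

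The Srsf3 stretch held a reverse CCAAT box, a reverse cAMP response element start and a TATA box. The Srsf6 stretch held 2 reverse GC boxes and a reverse cAMP response element start, and the Srsf10 stretch a CCAAT box and a GC box. In the Hnrnph2 stretch there were CCAAT boxes on both strands and a reverse GC box, whereas the Hnrnpdl stretch held none of the 5 motifs. No motif was thus common to these stretches. Over the whole 250 bases upstream, the GC box was found in 92.3% of Srsf promoters (12 of 13), 73.1% of Hnrnp, 52.6% of Ddx and 30.3% of Rbm promoters, against 32.7% of all 32851 promoters in the table. The CCAAT box was found in 61.5% of Hnrnp, 50% of Ddx, 36.4% of Rbm and 23.1% of Srsf promoters, against 33.8% of all. ETS site matches lay in 20.9% of the promoters of the 4 families and in 6.91% of all. Median GC content of those 250 bases was 68.4% for Srsf, 64.8% for Hnrnp, 59.6% for Rbm and 59.0% for Ddx, with 52.4% for all promoters, and base composition alone changes how often such letters occur. These matches are descriptions of the sequence and were not related to the array values.

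Expression was lower in knockout than in wild type liver for 10 member probe sets of 9 genes, and higher for none. They were the SR protein genes Srsf3, Srsf6 and Srsf10, the hnRNP genes Hnrnpdl (by 2 probe sets), Hnrnph2 and Hnrnpr, the spliceosome gene Rbm25, the RNA stability regulator Rbm38 and the helicase Ddx5. The test was limma on log2(intensity + 16) over 22518 probe sets, and calls were made at a Benjamini-Hochberg adjusted p under 0.05. Of all tested probe sets 1.89% were called lower and 2.35% higher (4.24% in either direction). At an unadjusted p under 0.05 there were 63 members lower and 3 higher, against 2650 lower and 2246 higher of all tested. The calls rest on few arrays: without wild type 1 or without wild type 2 no member passed, and without wild type 3 only 1 did (Srsf3). Without knockout 4 there were 4, namely Hnrnpr, Hnrnph2, Hnrnpa1 and Rbm18, of which Hnrnpa1 and Rbm18 were not called with all arrays. In these 4 fits 145, 76, 22 and 159 of all tested probe sets were called lower, in place of 426. Each of the 10 member probe sets lost its call in at least 3 of the 7 fits without 1 array. With arrays shifted to equal medians, Hnrnpdl, Hnrnpr and Rbm25 still passed, while Srsf10, Srsf6, Srsf3, Ddx5, Hnrnph2 and Rbm38 did not (limma adjusted p = 0.0518, 0.0586, 0.0591, 0.0727, 0.0912 and 0.126).

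Taken as a whole, called or not, the tested members leaned the same way. The median log2 fold change, knockout minus wild type, was -0.24 over the 216 tested members and -0.03 over all tested probe sets. It was negative for 176 members (81.5%), against 54.2% of all. In 65 members (30.1%) every knockout liver lay below every wild type liver, which held for 11.8% of all tested probe sets, and in 4 (1.85%) every knockout liver lay above, against 9.40% of all. Without the filter on dim probe sets the median over all 269 members was -0.21 and 204 were negative. The lean was seen at each level of brightness: with tested probe sets cut into 4 parts of equal size from dim to bright, member medians were -0.26, -0.16, -0.23 and -0.29, and those of all tested were -0.06, -0.05, -0.02 and -0.02. These counts describe lists chosen with results known and carry no test.

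**Figure D1:**
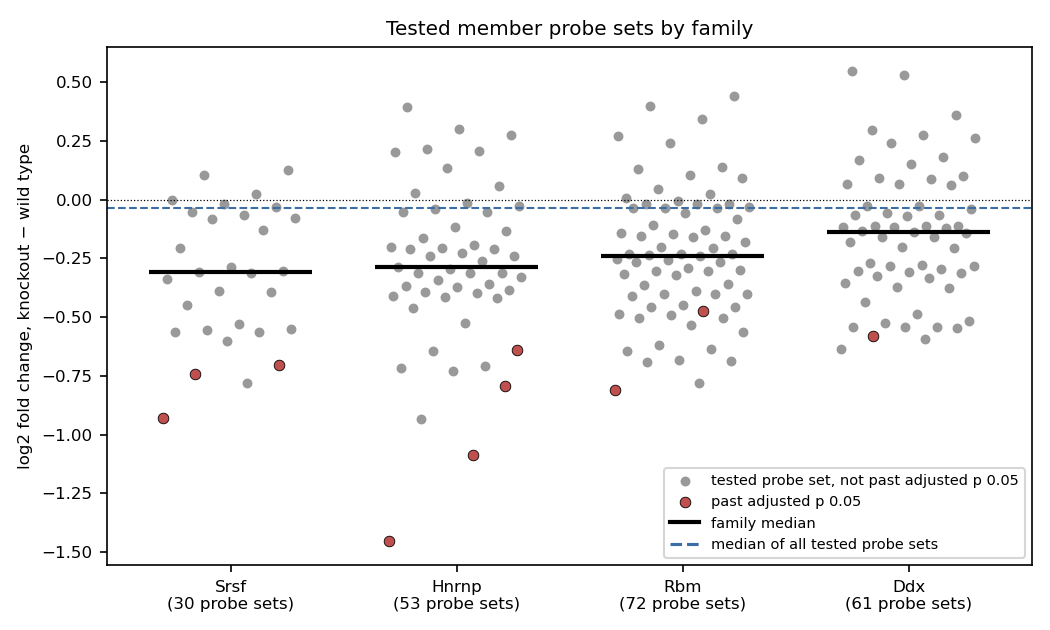
Log2 fold change (knockout minus wild type, vertical axis) of each tested member probe set, by family; the black bar is the family median, the dashed line the median of all 22518 tested probe sets, and red points passed an adjusted p of 0.05. All 10 red points lie below 0, and the family medians run from -0.31 for Srsf to -0.14 for Ddx.

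The families differed in how far they leaned, though no test of a difference between families was made. Srsf probe sets had a median log2 fold change of -0.31, with 27 of 30 negative and 3 called. Hnrnp probe sets had a median of -0.29, with 44 of 53 negative and 4 called. Rbm probe sets followed at -0.24, with 60 of 72 negative and 2 called, and Ddx probe sets at -0.14, with 45 of 61 negative and 1 called. Knockout livers were all below wild type livers for 11 Srsf (36.7%), 18 Hnrnp (34.0%), 20 Rbm (27.8%) and 16 Ddx (26.2%) probe sets. When each gene was given by its brightest probe set, 16 of 19 Hnrnp, 25 of 29 Rbm, 22 of 31 Ddx and 7 of 9 Srsf genes were negative, with medians of -0.26, -0.18, -0.13 and -0.06. The Srsf median thus rested on probe sets other than the brightest.

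Set out by array, the mean log2 level of the tested Srsf probe sets, relative to its wild type mean, was 0.08, 0.05 and -0.13 in the wild type livers and -0.28, -0.23, -0.40 and -0.38 in the knockout livers. For Hnrnp the wild type livers lay between -0.03 and 0.03 and the knockout livers at -0.30, -0.19, -0.41 and -0.25. Both families were lower in every knockout liver than in any wild type liver. For Rbm the wild type livers were at 0.06, -0.03 and -0.02 and the knockout livers at -0.19, -0.17, -0.36 and -0.22, again without overlap. For Ddx the wild type livers were at 0.06, -0.02 and -0.04 and the knockout livers at -0.03, -0.11, -0.24 and -0.21, so knockout 1 lay within the wild type range. Over all tested probe sets the knockout livers were at -0.01, 0.03, -0.08 and -0.03. Knockout 3 was the lowest for all 4 families, and was the lowest of the knockout livers in 94 of 216 members and in 8235 of 22518 probe sets.

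**Figure D2:**
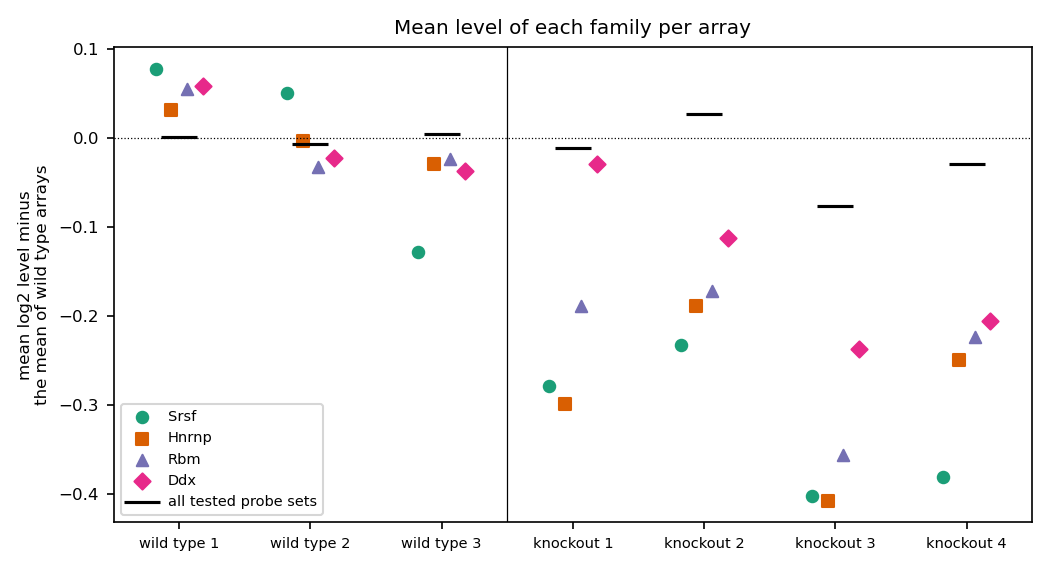
Mean log2(intensity + 16) of the tested probe sets of each family in each of the 7 arrays, minus the mean of the 3 wild type arrays; black bars give the same over all tested probe sets. Srsf, Hnrnp and Rbm lie lower in all 4 knockout arrays than in any wild type array, while the Ddx point of knockout 1 (-0.03) lies within the wild type range.

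Knockout 3 also stood apart in the ratios of 3' to 5' control probe sets, which rise as RNA degrades, being the highest for all 4 controls. For transferrin receptor the ratio was 11.1 in knockout 3, 7.22 to 7.32 in the other knockout arrays and 7.91 to 8.24 in the wild type arrays. For pyruvate carboxylase it was 7.28, 3.46 to 4.84 and 5.4 to 6.39 in the same order. The other 3 knockout arrays thus lay below the wild type arrays for both. Without knockout 3 the member median was -0.19 and 10 members were called. Levels of some cell type markers differed between the groups. Of the cell cycle genes used as markers of dividing cells, 9 of 9 tested were lower in the knockout by their brightest probe set (median -0.45, with Rrm2 and Cdca8 past the test), and their summed intensity was 49394 to 52400 in wild type and 29912 to 39561 in knockout livers. Of the erythroid precursor markers, 8 of 8 tested were lower (median -0.41, with Slc4a1 and Rhag past the test), with summed intensity 68281 to 77360 and 54992 to 60237. Newborn mouse liver is still a site of blood formation. Liver endothelium markers were lower in 5 of 6 (median -0.23, 13165 to 15531 and 7519 to 13036), neutrophil markers in 6 of 6 (median -0.32, 93127 to 122805 and 74404 to 109143) and Kupffer cell markers in 4 of 6 (median -0.16, 11141 to 14631 and 11847 to 14677). Stellate cell markers were lower in 2 of 6 (median 0.09, 18629 to 23459 and 16296 to 25714) and B cell markers in 0 of 4 (median 0.44, 1494 to 2226 and 1417 to 2922). No T cell marker was bright enough to test, with sums of 155 to 196.3 and 98 to 150.8. With equal medians Slc4a1, Rhag and Cdca8 did not pass. Hepatocyte markers were bright in every array, with summed intensity 178662 to 196420 in wild type and 173463 to 233686 in knockout livers, and 6 of 7 were higher (median 0.07). No marker gene was at 0 in any group. The part of these differences in the member results was not tested, and in whole liver fewer cells of a type and less RNA per cell cannot be told apart.

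Among SR proteins, Srsf3, Srsf6 and Srsf10 fell and no gene rose, though with arrays shifted to equal medians all 3 missed the threshold, as given above. Srsf3 is a small SR protein that also helps export mRNA and is needed for normal hepatocyte maturation. Its probe set 1434512_x_at read 2017, 1818 and 1135 in the wild type livers and 709.9, 1096, 767 and 819 in the knockout livers. The groups did not overlap, but wild type 3 lay close to knockout 2. The log2 fold change was -0.93 ± 0.22 (SE; limma adjusted p = 0.0472). All 6 tested Srsf3 probe sets were negative, from -0.93 to -0.21, and in all 6 knockout 2 was the highest knockout liver. The brightest, 1416150_a_at, gave -0.45 ± 0.12 and did not pass (limma adjusted p = 0.0634).

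Srsf6, an SR protein known for activating exons and for its own decay-linked exon, was read at 3290, 2901 and 2891 in wild type and 1844, 1598, 2196 and 1798 in knockout livers by probe set 1447898_s_at. Every knockout liver was lower, and the log2 fold change was -0.71 ± 0.14 (limma adjusted p = 0.0270). Its brightest probe set, 1448454_at, did not share this, at 0.10 ± 0.13 (limma adjusted p = 0.704), and the other 2 gave -0.39 and -0.34. Srsf10, an SR protein that turns into a general splicing repressor when dephosphorylated, was read at 1508, 1219 and 1384 in wild type and 764.7, 733, 862 and 891 in knockout livers by 1423982_at. Its groups were well apart and its log2 fold change was -0.74 ± 0.15 (limma adjusted p = 0.0256). A further Srsf10 probe set, 1449121_at, gave -0.60 ± 0.16 (adjusted p = 0.0628 in limma), whereas 1418526_at gave -0.05 and 1418527_a_at 0.13.

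The founding SR protein Srsf1 did not pass. Its 6 probe sets were all negative, and the 1 of smallest p, 1428100_at, read 1792, 2003 and 1747 in wild type and 1334, 1393, 1094 and 1205 in knockout livers (-0.55 ± 0.14, limma adjusted p = 0.0554). Srsf5, a growth-responsive SR protein, read 15116, 16634 and 13334 against 10073, 9967, 12714 and 8259 (-0.56 ± 0.15, limma adjusted p = 0.0599), also without overlap. Srsf2, which binds C-rich and G-rich exon enhancers alike, gave -0.30, -0.02 and 0.02 by its 3 probe sets, and its wild type livers alone spread from 8265 to 12840 by the brightest. Srsf4 and Srsf9 each had 1 tested probe set, at -0.08 and -0.0025.

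Within the hnRNP family Hnrnpdl, Hnrnpr and Hnrnph2 fell and none rose. Hnrnpdl is a paralogue of the AU-rich element binding protein Hnrnpd, and makes several alternatively spliced transcripts. Probe set 1428224_at read 367, 304 and 374 in the wild type livers and 95.2, 211, 73.2 and 120.6 in the knockout livers. This was the largest change of any member, -1.46 ± 0.29 on the log2 scale or 2.74-fold lower (limma adjusted p = 0.0272). Probe set 1456698_s_at read 1441, 1147 and 1154 against 502, 829, 457 and 574, a change of -1.09 ± 0.21 (limma adjusted p = 0.0237). Knockout 2 was the highest knockout liver in both. These were the only members beyond 2-fold.

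The other Hnrnpdl probe sets were divided, 3 negative and 2 positive. Of its 7 tested probe sets, 1420093_s_at, 1449039_a_at and the brightest, 1424251_a_at, gave -0.73 ± 0.24, -0.65 ± 0.20 and -0.31 ± 0.16, none of which passed. Probe set 1424252_at gave 0.13 ± 0.14, and 1428225_s_at gave 0.20 ± 0.14 with every knockout liver (744.8 to 830.8) above every wild type liver (631.6 to 720.8). Whether the probe sets of a gene changed alike was tested with limma's diffSplice over 5074 genes with at least 2 tested probe sets, of which 3 (0.0591%) passed. Hnrnpdl was 1 of those 3 (limma adjusted p = 0.0395), and the only 1 of the 52 member genes so tested. Srsf10 was next among members and did not pass (limma adjusted p = 0.0652). The Hnrnpdl result depended on the arrays: of the 7 fits without 1 array it passed only without knockout 2 (limma adjusted p = 1.93e-04), with the highest value without wild type 3 (0.709), and it was 0.0503 with an offset of 64. Which transcript each probe set reads was not analysed here.

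**Figure D3:**
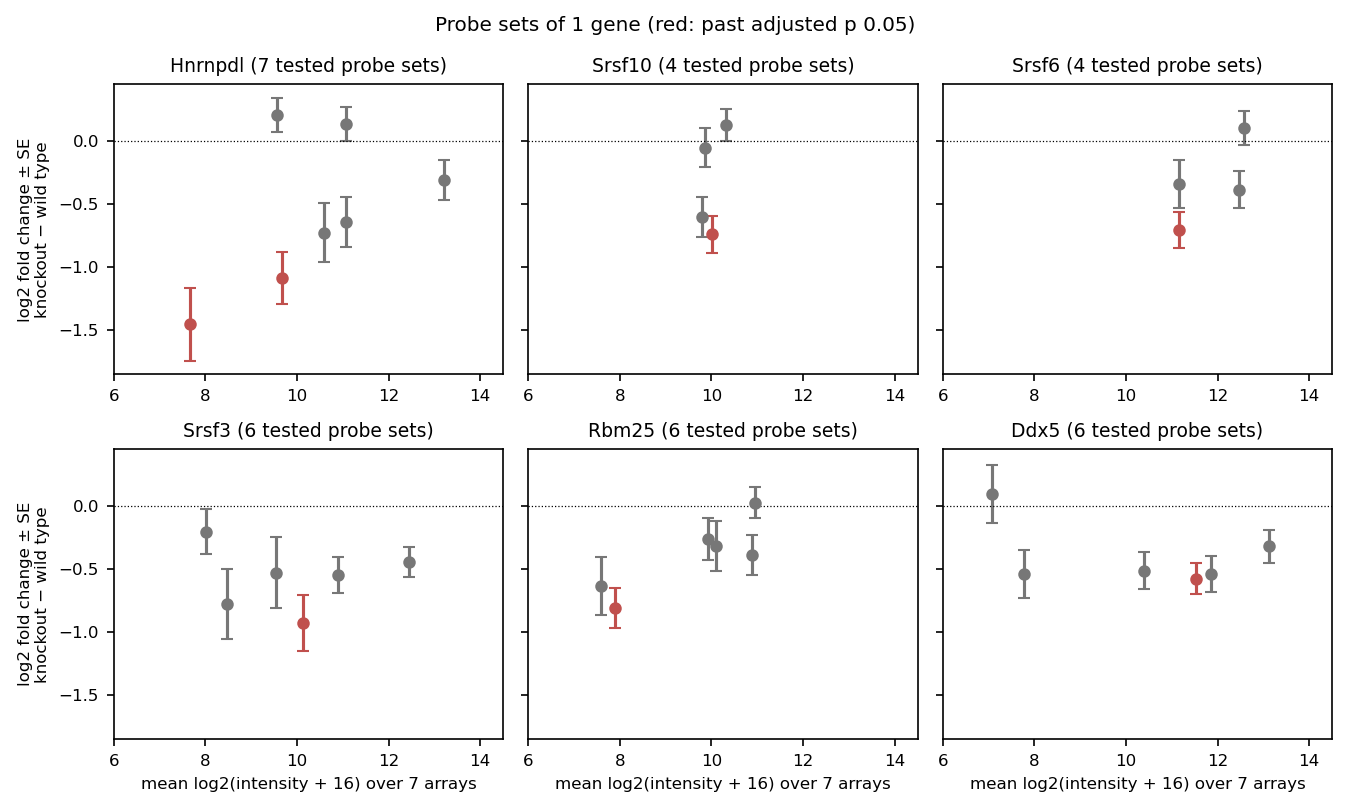
Log2 fold change (knockout minus wild type, with its SE) of each tested probe set of 6 genes, against its mean log2(intensity + 16) over the 7 arrays; red points passed an adjusted p of 0.05. Hnrnpdl and Srsf10 have probe sets on both sides of 0, whereas all 6 Srsf3 probe sets lie below 0.

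Hnrnpr, a relative of the translation and splicing factor Syncrip, had the smallest p of all members. Probe set 1437526_x_at read 2825, 2894 and 3137 in wild type and 1859, 1471, 1539.5 and 1949 in knockout livers, well apart, with a log2 fold change of -0.80 ± 0.14 (limma adjusted p = 0.0177). Its other tested probe sets gave -0.39 ± 0.34, -0.21 ± 0.12 and 0.06 ± 0.14. Hnrnph2, an X-linked protein that binds runs of G, has 1 probe set, which read 3412, 4125 and 3740.1 in wild type and 2251, 2187, 2258 and 2969 in knockout livers. Knockout 4 stood above the other knockout livers yet below all wild type livers, and the log2 fold change was -0.64 ± 0.15 (limma adjusted p = 0.0400).

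Other hnRNP genes did not pass. Hnrnpa1, the classic opponent of SR proteins in splice site choice, read 2877, 2609 and 3346 against 1819, 1508, 1525 and 2385 by 1436549_a_at (-0.72 ± 0.18, limma adjusted p = 0.0551), and its other probe set gave -0.19. Hnrnpc, which binds U-rich introns, gave -0.71 ± 0.20 by 1418693_at (limma adjusted p = 0.0724) and -0.24 by its bright probe set. Hnrnpk, a C-rich sequence binder, read 16676, 14356 and 14953 by 1460547_a_at against 12712, 11372, 11471 and 11718 (-0.37 ± 0.10, limma adjusted p = 0.0591). All 4 Hnrnpk probe sets had every knockout liver below every wild type liver. Hnrnpab gave -0.36 ± 0.09 (limma adjusted p = 0.0578) and had 7 of 7 probe sets negative. Hnrnpf, the partner of Hnrnph1 and Hnrnph2 in G-run binding, gave -0.34 ± 0.10 by its brightest probe set (limma adjusted p = 0.0747) and 0.40 ± 0.20 by 1423382_a_at. Hnrnpa2b1 was negative in 4 of 4 probe sets, the lowest p being at -0.46 ± 0.20 (limma adjusted p = 0.220). Hnrnpu, a nuclear matrix protein that organises chromatin, was positive in 3 of 5 probe sets and gave -0.42 ± 0.17 by 1434390_at (limma adjusted p = 0.192).

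**Figure D4:**
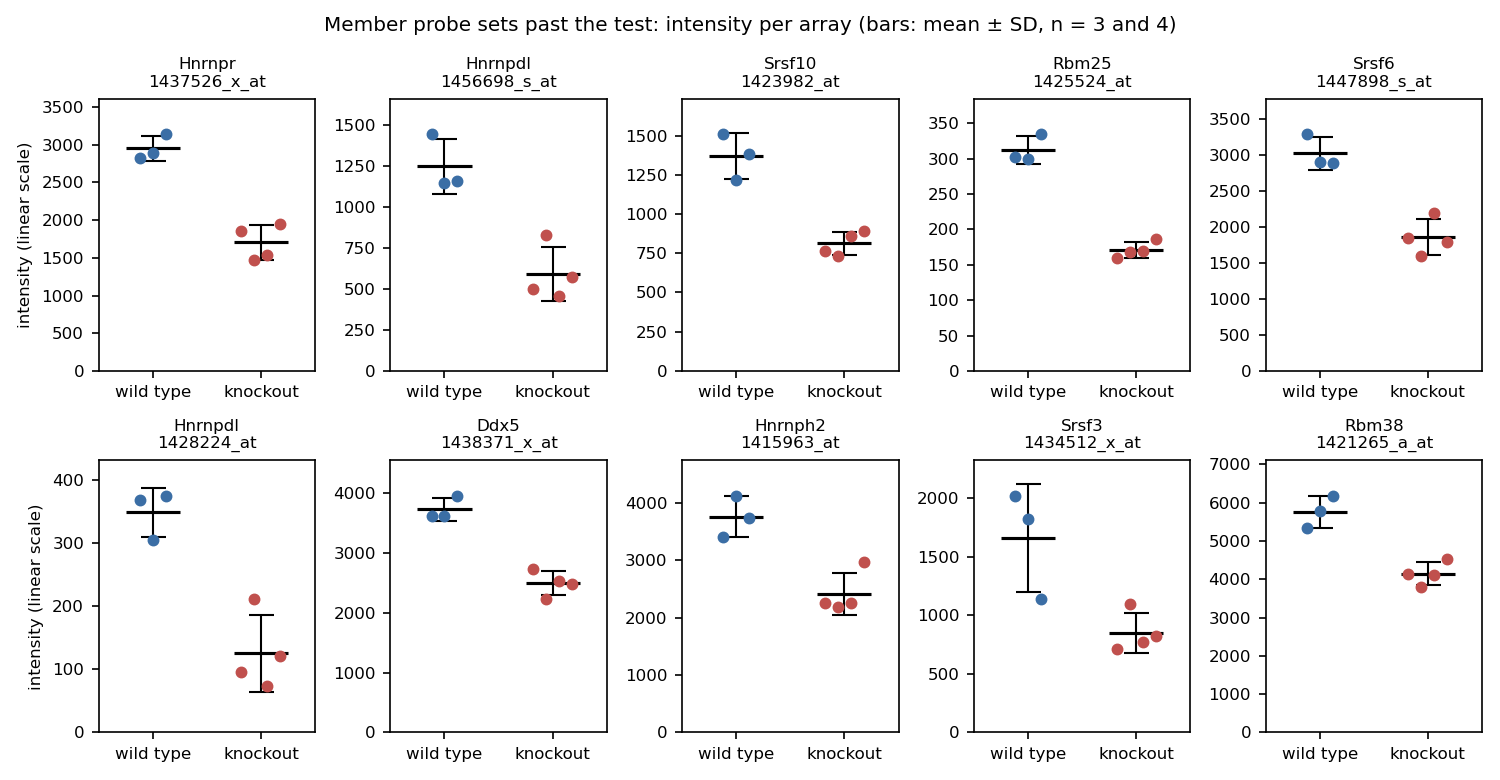
Intensity per array (linear scale from 0) for the 10 member probe sets that passed; points are single livers, bars the mean and SD of 3 wild type and 4 knockout livers. In every panel the highest knockout liver lies below the lowest wild type liver, with the narrowest gap for Srsf3.

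Of the numbered Rbm genes Rbm25 and Rbm38 fell. Rbm25 is a U1-associated protein that helps choose 5' splice sites. Its dim probe set 1425524_at read 302.8, 299.9 and 334.5 in wild type and 160, 168, 170.2 and 187 in knockout livers, tight groups that were far apart, with a log2 fold change of -0.81 ± 0.16 (limma adjusted p = 0.0259). The other 5 Rbm25 probe sets gave -0.64 to 0.02. Rbm38, a p53 target that stabilises cell cycle mRNAs and guides splicing late in red cell development, has 1 probe set, which read 5345, 5776 and 6177 against 4149, 3807, 4109 and 4524. Its log2 fold change was -0.47 ± 0.11 (limma adjusted p = 0.0475), and it passed in none of the 7 fits without 1 array. The erythroid precursor markers were also lower in the knockout, as given above.

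By role, 6 of 8 tested genes of the Rbm group that builds the spliceosome or exon junction complex were negative by their brightest probe set (median -0.24). Rbm39, a cofactor related to U2AF that pairs with SR proteins, was the member with the most probe sets, and all 12 were negative, from -0.62 to -0.15. None of them passed, the smallest limma adjusted p being 0.0743 for 1442745_x_at (-0.56 ± 0.16). Rbm8a, the exon junction protein Y14, gave -0.69 ± 0.25 by a dim probe set (limma adjusted p = 0.144) and -0.21 by its bright probe set. Rbm5 went the other way in 3 of 5 probe sets. This splicing regulator of apoptosis genes read 415.3, 432.6 and 421.1 in wild type and 623, 519, 479 and 643 in knockout livers by 1452187_at, all higher, but did not pass (0.40 ± 0.16, limma adjusted p = 0.183). Of genes with little described function, Rbm18 gave -0.78 ± 0.20 (limma adjusted p = 0.0554) and Rbm12 -0.65 ± 0.17 (limma adjusted p = 0.0635).

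Rbm genes tied to RNA methylation or nuclear bodies were negative for 5 of 6 (median -0.18), with 0 called. Of the tissue regulators 3 of 6 were tested, and 2 of these were negative by the brightest probe set, with Rbm38 called. Their median was -0.02, and -0.01 over all 6 of their tested probe sets. Rbm47, which in gut and liver assists the editing of apolipoprotein B mRNA, was positive in both tested probe sets, at 0.44 ± 0.20 (limma adjusted p = 0.238) and 0.34. Rbm20 and Rbm24, splicing regulators of heart and skeletal muscle, were among 12 member genes too dim to test: the 5 Rbm24 probe sets read 2.6 to 61.1 and the Rbm20 probe set 18.3 to 67.9 over the 7 livers. The others were Rbm11, Rbm44, Rbm46, the antisense genes Rbm3os and Rbm46os, Ddx4, Ddx25, Ddx43, Ddx60 and Srsf12.

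Among the DEAD-box helicases Ddx5 fell and none rose. Ddx5, or p68, unwinds RNA at splice sites and in microRNA processing, and is a transcriptional coactivator. Probe set 1438371_x_at read 3617, 3629 and 3959 in wild type and 2731, 2234, 2535 and 2492 in knockout livers without overlap, with a log2 fold change of -0.58 ± 0.12 (limma adjusted p = 0.0313). Its other probe sets gave -0.54, -0.54, -0.52 and -0.32, and 0.09 for the dimmest, 1433809_at. Of the 8 tested Ddx genes of splicing and mRNA export 7 were negative by their brightest probe set (median -0.24). These include Ddx39b, the export helicase UAP56, at -0.34 ± 0.16 (limma adjusted p = 0.254). By that probe set knockout 3 lay far below the rest, at 5554 against 7624 to 8706 in the other knockout livers. The other tested Ddx39b probe set, 1437984_x_at, gave -0.06 ± 0.11 (limma adjusted p = 0.789).

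Ribosome assembly helicases formed the largest Ddx group: 10 of 13 were negative by the brightest probe set (median -0.14) and 0 were called. Ddx21, a nucleolar helicase that couples transcription of ribosomal genes to rRNA processing, read 1588, 1050.5 and 1018 in wild type and 977, 764, 651 and 696.6 in knockout livers by 1448270_at (-0.63 ± 0.20, limma adjusted p = 0.107), but its other probe set gave -0.03 ± 0.22. The 4 helicases of translation, decay and snRNP assembly were all negative by the brightest probe set (median -0.32), again with 0 called, but the median over all 9 of their probe sets was -0.12. Ddx20, part of the SMN complex that assembles snRNPs, gave -0.59 ± 0.18 (limma adjusted p = 0.0983). Ddx6, which represses translation and promotes decapping, gave -0.52 ± 0.15 by 1434697_at (limma adjusted p = 0.0794), and -0.11 ± 0.24 and 0.55 ± 0.38 by its other probe sets.

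By the brightest probe set 9 of 31 tested helicase genes were higher in the knockout, and no helicase probe set was called higher. Ddx3x, an X-linked helicase of translation initiation, read 2035, 2295 and 1743 in wild type and 4124, 2782, 2399 and 2604 in knockout livers by 1416467_at (0.53 ± 0.19, limma adjusted p = 0.148), all higher, with knockout 1 furthest. Its brighter probe sets gave -0.12 ± 0.12 and -0.18 ± 0.13. Of the innate sensors, Ddx58, the viral RNA sensor RIG-I, gave 0.36 ± 0.25 and 0.24 ± 0.27 (limma adjusted p = 0.431 and 0.655), with overlapping groups. Germ line helicases were too dim to test, and Ddx4, the germ cell marker Vasa, read 0.8 to 34.0 over the 7 livers.

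Agreement between probe sets of a gene was also counted. Of the 52 member genes with at least 2 tested probe sets, 28 (53.8%) had all of them negative, 22 had both signs and 2 (Ddx58 and Rbm47) had all positive. Over all 5074 such genes, 1770 (34.9%) had all negative and 1419 all positive. Genes with all negative numbered 10 of 17 for Rbm, 8 of 16 for Ddx, 3 of 6 for Srsf and 7 of 13 for Hnrnp.

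The rest of the splicing machinery is given beside the families. Of 14 tested core snRNP protein genes 11 were negative by the brightest probe set (median -0.06; -0.21 over all 27 probe sets, 22 negative) and Snrnp40, the U5 protein of the tri-snRNP, fell: 1469, 1107.5 and 1322.5 against 638, 607, 552 and 583 (-1.10 ± 0.15, limma adjusted p = 0.0062), though its other probe set gave 0.04. The SF3 complex and U2AF group, which recognises the branch point and 3' splice site, had 10 of 16 negative (median -0.15; -0.27 over all 40 probe sets), and Sf1 (-0.79 ± 0.13, limma adjusted p = 0.0140), Sf3b6 and Sf3b1 fell. PRPF genes had 15 of 17 negative (median -0.19, also over all 32 probe sets) and DEAH helicases 12 of 15 (median -0.06; -0.08 over all 24), with 0 called in the former and Dhx15, which releases the spent spliceosome, called in the latter (-0.73 ± 0.13, limma adjusted p = 0.0177), though its brighter probe set gave -0.06 ± 0.13. Kinases of SR proteins and SR-like genes had 14 of 21 negative (median -0.12, also over all 75 probe sets), with Luc7l2 lower (-0.91 ± 0.17, limma adjusted p = 0.0216). Exon junction, nonsense decay and export genes had 9 of 13 negative (median -0.15; -0.18 over all 26 probe sets), with 0 called. Other RNA binding regulators had 20 of 31 negative (median -0.07; -0.04 over all 97 probe sets): Matr3 (-0.65 ± 0.11, limma adjusted p = 0.0142), Syncrip and Ptbp3 fell, and Tial1 rose by 1 of 4 probe sets (0.74 ± 0.15, limma adjusted p = 0.0274). Of the 7 fits without 1 array Ptbp3 passed in 0, Syncrip in 1, Sf3b1 in 2, Luc7l2 and Tial1 in 3, Dhx15 and Sf3b6 in 4, Matr3 in 5 and Snrnp40 in 7, and the 2 called probe sets of Sf1 passed in 5 and 4. The brightest Ptbp3 probe set gave -0.07, and 3 of 5 Syncrip probe sets lay from -0.07 to 0.05.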

How the data were processed

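The authors deposited linear intensities, with 1 value for each probe set on each array. The program GCOS is named per the submitters' processing notes, and the sources used here do not give how probes were summarised. The trimmed mean of each array was 500, so arrays had been scaled to 1 target, which hides any change of total mRNA; array medians were 92.7 to 108.3. Values were used as log2(intensity + 16), since array medians lay within 0.2 on that scale. Of 45101 probe sets 64 controls were left out, and the 22518 above the median of all were tested with limma 3.58.1 in R 4.3.3 (lmFit, eBayes with a trend), adjusted by Benjamini-Hochberg over all tested. Fold changes on this scale understate those of dim probe sets. Errors are SEs from limma. limma's diffSplice compared probe sets within a gene. The steps were tested on simulated data, with noise drawn independently for each probe set and no effect shared across an array. Rates in the real data may therefore differ. In the simulated data the comparison of knockout with wild type recovered 10% of 1.5-fold, 48% of 2-fold and 92% of 4-fold changes, and 4.65% of its calls were false. For probe set use 92% of 4-fold changes were recovered and 6.12% of calls were false. A probe set that did not pass is thus not shown to be unchanged.

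Groups came from sample titles. Gene names came from the platform annotation, and promoters from RefSeq (GRCm38.p6). Values of the targeted gene are not reported, and the labels were not checked by it. Intensities of different probe sets are not compared as levels of genes. Members, role lists and markers were chosen with earlier results of these data known.

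Named members were genes past the test, the 3 brightest and up to 2 of smallest p not past it per family, genes of smallest p in the probe set test, and genes of set roles. In other lists up to 2 genes past the test were to be named. Others (Sf3b1, Ptbp3, Rbm39, Srsf4, Srsf9, the markers and the dim genes) were named after their values were seen. Alternatives covered the offset, scaling, filter, variance model, threshold, probe set types, a replicate block and each array left out.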

Additional observations from a re-analysis of the deposited data

Results flagged for a closer look

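Hnrnph2 was the single value of 36 checked in which 1 knockout liver stood apart from its group. On the log2(intensity + 16) scale the 4 knockout livers were at 11.15, 11.10, 11.15 and 11.54, and the gap of knockout 4 to its nearest neighbour was 0.896 of the range, above Dixon's critical value of 0.829 for 4 samples. Chance marks about 1 in 20 such groups. Knockout 4 remained below every wild type liver, and without it the adjusted p from limma was 0.0366. It was above 0.05 in each of the other 6 fits without 1 array, at most 0.160.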

How the results depend on the processing

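No median of the families changed direction in any alternative run. Neither did the 10 called probe sets nor the 21 named probe sets without a call that were followed there. The direction of other probe sets given in the text was not followed. The 10 member probe sets called lower became 4 with arrays shifted to equal medians, 5 without the filter, 6 without the variance trend, 32 at an adjusted p under 0.10, 4 without probe sets that can read several transcripts, and 2 with 1 probe set a gene; leaving out each array gave 0 to 11. In that order the counts were 1, 0, 1, 7, 1 and 1 for Rbm (2 as reported, and 1 with the filter at the 25th percentile; 0 to 2 without 1 array), and 0 with equal medians, 0 without the trend, 5 at 0.10, 0 without shared probe sets and 0 with 1 probe set a gene for Ddx (1 as reported, 2 after quantile normalization; 0 to 2). For Srsf (3 as reported) they were 0 with equal medians, 8 at 0.10, 1 without shared probe sets and 0 with 1 probe set a gene (0 to 3 without 1 array). For Hnrnp (4 as reported) they were 2 without the filter, 12 at 0.10, 2 without shared probe sets and 1 with 1 probe set a gene (0 to 6). The Srsf median moved to -0.064 with 1 probe set a gene, and the Rbm median ranged from -0.29 to -0.16 without 1 array. The member median over all 4 families ranged from -0.26 to -0.19 without 1 array. With equal medians it was -0.18, with 154 of 216 members negative in place of 176. Genes past the test of probe set use went from 1 to 0 with an offset of 64, and ranged from 0 to 1 without 1 array. Equal medians turned the median of all tested probe sets from -0.03 to 0.03 and the share of calls that were higher from 55.4% to 71.3%, with 759 calls in all. Over the 16 alternatives run for single members, the 10 called probe sets kept their call in 83 of 160 cases and lost it in 77. The 83 include the threshold of 0.10, at which none of the 10 could lose its call. The 21 named probe sets without a call gained one in 18 of 336. The cause of these changes was not tested.

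The labels do not say whether replicate numbers pair the samples. The correlations cannot decide it, because litters and batches are not described. After the group mean of each probe set was subtracted, same-numbered arrays correlated at 0.09, -0.06 and 0.06. Wild type and knockout arrays of different numbers then correlated at -0.13 to 0.12. Before that step any 2 arrays correlated at 0.93 to 0.985. With replicate numbers as a block, where knockout 4 has no partner, 0 members were called (0 in each family, 351 of all tested, against 955 without the block). The member median was then -0.24. Of the 10 called probe sets, Hnrnpr passed in 4 of the 7 fits without 1 array (any knockout), both of Hnrnpdl in 3, Srsf3, Srsf6, Srsf10, Rbm25 and Ddx5 in 2, Hnrnph2 in 1 and Rbm38 in 0; their highest adjusted p was 0.215. Precision is limited by there being 7 arrays.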

Other observations

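Some members shared an order of the knockout livers; these were picked after their values were seen, and are given without a test. In all 5 Hnrnpdl probe sets with a negative change knockout 2 was the highest knockout liver, as in all 6 of Srsf3. The paralogue Hnrnpd showed the same by its dim probe set 1457568_at, which read 242.3, 276.5 and 240.9 in wild type and 101.7, 197, 83.2 and 141.1 in knockout livers (-0.94 ± 0.26, limma adjusted p = 0.0738). That is the order of the knockout livers in Hnrnpdl 1428224_at. Over all tested probe sets knockout 2 was the highest knockout liver in 29.0%. In the Ddx family knockout 1 was the highest knockout liver in 29 of 61 probe sets (47.5%), against 28.9% of all tested. Hnrnpll, an hnRNP of lymphocytes, gave 0.30 ± 0.12 by 1425255_s_at with every knockout liver above every wild type liver (limma adjusted p = 0.173). Its other tested probe set, 1427144_at, gave -0.04 ± 0.15 (limma adjusted p = 0.911), with overlapping groups.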
